A study of Mus musculus with 16 samples.

Results

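Genomic DNA of the mouse melanoma sublines B16F0 and B16F10 was compared for copy number. The comparison used 4 of the 16 arrays of a series on mouse tumour lines used as transplantable models in mice of their own strain. The arrays were chosen by their cell line labels: B16F0 ECAC and B16F0 ATCC on one side, B16F10 NCI and B16F10 ATCC on the other, where ECAC, ATCC and NCI are parts of the cell line labels. All 4 carry the strain label C57BI6, the sex label female and melanoma as the tissue of origin, and none carries a treatment label. Each array holds DNA from 1 culture of its line, so the 2 arrays of a subline differ in cell line label as well as in culture. P-values set a difference against the spread between the 2 arrays of a subline. That spread mixes culture with measurement, and these cannot be told apart. The number of arrays limits the precision.

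B16 is a melanoma that arose in a C57BL/6 mouse. B16F10 was derived from B16F0 by repeated selection of cells that had formed lung colonies, and it is widely used as the more metastatic subline. Copies of a cultured tumour line kept by different collections can gain or lose chromosomes separately, so a difference between 1 B16F0 and 1 B16F10 culture need not be a difference between the sublines. A subline difference was therefore counted where both arrays of one subline lay on the same side of both arrays of the other. The gap is the distance between the nearest arrays of the 2 sublines.

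On each array the line's DNA carried the red dye and a mouse genomic DNA bought as a common reference carried the green dye. Values are log2 ratios of line over reference, centred on the autosomal median of each array, so that a positive value is a relative gain. Genome positions are on the mouse build mm8. The 4 arrays shared values for 220487 autosomal probes, and 99.6% to 99.7% of probes had a line signal clearly over background. The noise SD of a probe, taken from its neighbours, was 0.23 in B16F0 ECAC, 0.30 in B16F10 NCI, 0.32 in B16F10 ATCC and 0.40 in B16F0 ATCC. B16F10 NCI was scanned in the first of 2 scan batches and the other 3 arrays in the second. Chromosome 4 from 111579573 to 113356094 was used to check the strain label of the B16 arrays. It was chosen because it follows the strain label in the rest of this series, so the other lines add no separate support. It stood at 2.28 to 3.07 in the 4 B16 arrays, at 0.96 to 3.02 in the 8 other C57BI6 lines and below 0 in the 4 lines of other strains. Of its 100 probes, 49 to 59 per array had a reference signal not well above background, so these ratios are bounds.

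The first comparison asked which whole chromosomes differed between the sublines. Mouse autosomes have their centromere at one end, so each has a single long arm and the arm is the chromosome. Chromosome 12 was the autosome that separated the sublines most. Its median was -0.030 in B16F0 ECAC and 0.014 in B16F0 ATCC, against 0.31 in B16F10 NCI and 0.25 in B16F10 ATCC. Both B16F10 arrays were high, both B16F0 arrays were near 0, and the gap between them was 0.24. The difference was 0.29 ± 0.078 (SE, n = 2 against 2), with an adjusted p of 0.079 by limma with Benjamini-Hochberg adjustment over 19 autosomes. Limma called 0 of 19 autosomes (0%) at an adjusted p of 0.05, and chromosome 12 was the 1 autosome with an unadjusted p under 0.05 (0.0042). An exact permutation of 2 arrays against 2 cannot give a two-sided p below 0.333, which is the value it gave for chromosome 12. Without B16F0 ATCC, the chromosome 12 difference was 0.31, and that of chromosome 18 was larger in size, at -0.35. On chromosome 18 B16F0 ATCC (-0.42) lay with the B16F10 arrays (-0.38 and -0.40). That comparison has a lone B16F0 array, whose spread cannot be estimated, so no p-value of it is given. Within the second scan batch, which leaves out B16F10 NCI, the chromosome 12 difference was 0.26.

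**Figure D1:**
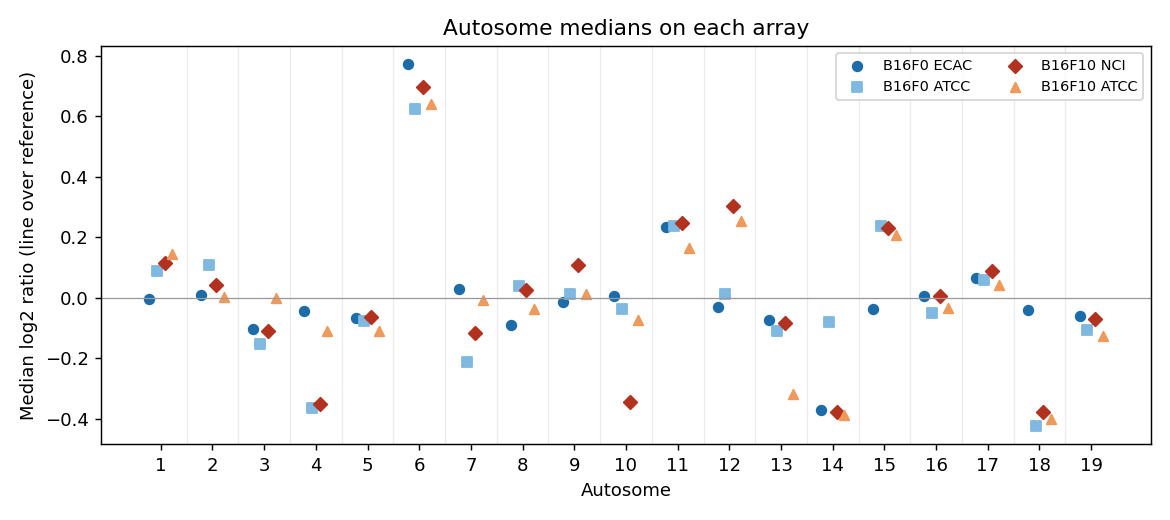
The y axis gives the median log2 ratio of line over reference for each autosome on the x axis, with 1 point per array. The 2 B16F10 arrays stand at 0.31 and 0.25 on chromosome 12, above both B16F0 arrays, and chromosome 6 is above 0.6 on every B16 array.

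Without overlap, the medians of 2 autosomes were higher (10.5%) and those of 2 were lower (10.5%) in B16F10. Besides chromosome 12 these were chromosomes 1, 10 and 14, with far narrower gaps. On chromosome 1 the medians were -0.0021 and 0.089 in B16F0 ECAC and ATCC and 0.11 and 0.14 in B16F10 NCI and ATCC, a gap of 0.026. On chromosome 10 they were 0.0065 and -0.037 in the B16F0 arrays and -0.34 and -0.074 in the B16F10 arrays, a gap of 0.037. B16F10 NCI alone was far below the others there, and the difference within the second scan batch was -0.059. On chromosome 14 the medians were -0.37 in B16F0 ECAC and -0.079 in B16F0 ATCC, against -0.38 and -0.39 in B16F10, a gap of 0.0078. The 2 B16F0 arrays were 0.29 apart there, so chromosome 14 set B16F0 ATCC apart from the other 3 rather than one subline from the other. Adjusted p-values by limma were 0.82, 0.73 and 0.82 for chromosomes 1, 10 and 14.

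Differences between the 2 arrays of one subline reached 0.38 in B16F0 and 0.27 in B16F10, against the 0.29 between the sublines on chromosome 12. Within B16F0 they were largest on chromosomes 18, 4 and 14. B16F0 ECAC had a chromosome 18 median of -0.040 and B16F0 ATCC one of -0.42, while B16F10 NCI and B16F10 ATCC were at -0.38 and -0.40. Within B16F10 they were largest on chromosomes 10, 4 and 13. Chromosome 13 was at -0.081 in B16F10 NCI and -0.32 in B16F10 ATCC, against -0.071 and -0.11 in B16F0. Chromosome 4 was low in B16F0 ATCC (-0.36) and B16F10 NCI (-0.35) and closer to 0 in B16F0 ECAC (-0.044) and B16F10 ATCC (-0.11), so it paired 1 array of each subline. Its mean difference between the sublines was -0.026 ± 0.12 (SE, n = 2 against 2; adjusted p = 0.95 by limma). Taking only the 2 ATCC arrays, 1 against 1 and with no test, B16F10 minus B16F0 was 0.24 on chromosome 12, -0.037 on chromosome 10, -0.31 on chromosome 14 and 0.25 on chromosome 4.

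The genome was next divided into 1 Mb bins to see where along the chromosomes the sublines separated. With a gap of at least 0.2, 65 of 2408 bins (2.7%) were higher in B16F10, and all 65 lay on chromosome 12. Of the same bins, 22 (0.914%) were lower in B16F10 by that gap, and all 22 lay on chromosome 10. Chromosome 12 holds 118 bins, 105 of which were higher in both B16F10 arrays at any gap. Chromosome 10 holds 127 bins, 64 of which were lower in both B16F10 arrays at any gap. Over all autosomes, 389 bins (16.2%) were higher and 248 (10.3%) lower at any gap, so a separation without a minimum gap was common elsewhere too. Limma called 0 of 2408 bins (lowest adjusted p = 0.51). It gave 120 bins an unadjusted p under 0.05 (4.98%), of which 80 lay on chromosome 12 and 34 on chromosome 10. The counts past the gap changed with the background correction. With normexp 6 bins were higher, 3 of them on chromosome 12, and 0 were lower, and the chromosome 12 median difference was 0.12. Normexp also changed the scale of the arrays unequally while the gap stayed at 0.2, and the cause of the lower counts was not tested. With fewer arrays to separate, more bins passed: 71 higher and 222 lower without B16F0 ECAC, 327 and 174 without B16F0 ATCC, 141 and 142 without B16F10 NCI, and 92 and 126 without B16F10 ATCC.

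**Figure D2:**
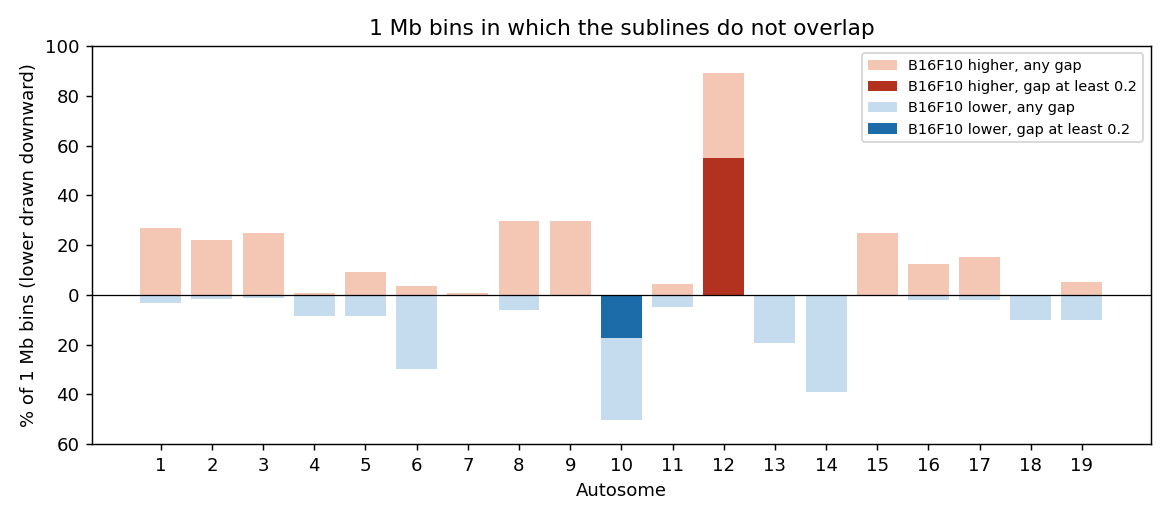
Bars give, for each autosome, the share of 1 Mb bins in which both B16F10 arrays were higher (upward) or lower (downward) than both B16F0 arrays, in light colour at any gap and in dark colour at a gap of at least 0.2. The dark bars stand on chromosome 12 (65 of 118 bins) and chromosome 10 (22 of 127 bins).

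The 3 bins with the widest gaps in each direction are given next. A choice by gap favours bins in which the 2 arrays of a subline lie close, so their closeness here is no separate result. Chromosome 12 from 98000001 to 99000000 (70 probes) stood at 0.044 and -0.049 in B16F0 ECAC and ATCC and at 0.39 and 0.40 in B16F10 NCI and ATCC. From 75000001 to 76000000 (84 probes) the same arrays gave -0.034, -0.10, 0.31 and 0.32. From 5000001 to 6000000 (82 probes), near the other end, they gave -0.0023, -0.0036, 0.37 and 0.33. On chromosome 10 the widest gap was from 120000001 to 121000000 (92 probes), at 0.13 and 0.099 in B16F0 and -0.23 and -0.25 in B16F10. From 110000001 to 111000000 (101 probes) the values were 0.053, 0.010, -0.30 and -0.30. From 107000001 to 108000000 (73 probes) they were -0.0058, -0.013, -0.36 and -0.32. The differences in these 6 bins ranged in size from 0.33 to 0.40 with SEs of 0.077 to 0.082, and each had an adjusted p of 0.51 by limma.

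Blocks were then drawn from the differences between the 4 arrays, so that a profile shared by all of them makes no boundary. As they were drawn from these differences, the blocks and the steps between them were given no test. The 19 autosomes fell into 50 blocks of at least 100 probes. Of these, 2 were higher (4%) and 2 lower (4%) in B16F10 with a gap of at least 0.2, and together they held 5.47% of the autosomal probes in blocks. Both higher blocks were on chromosome 12 and covered 92.3 Mb. Both lower blocks were on chromosome 10 and covered 39.9 Mb.

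The proximal block of chromosome 12, from 3095298 to 33236567 (2018 probes), stood at 0.043 in B16F0 ECAC, 0.056 in B16F0 ATCC, 0.39 in B16F10 NCI and 0.31 in B16F10 ATCC. The distal block, from 58260551 to 120458172 (6152 probes), stood at 0.083, 0.090, 0.42 and 0.34 in the same order. In both, the B16F0 arrays nearly coincided and both B16F10 arrays were about 0.3 higher, a 1.23-fold and a 1.22-fold ratio of B16F10 over B16F0. The SE over probes was at most 0.011 for each of these values, an error that covers probe noise but no variation among cultures.

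The block between them, from 33270505 to 58247802 (2053 probes, 24.98 Mb), behaved differently. It stood at -0.45 in B16F0 ECAC, -0.059 in B16F0 ATCC, -0.011 in B16F10 NCI and -0.021 in B16F10 ATCC. The gap there was 0.038, and the B16F10 arrays lay close to B16F0 ATCC. Read within each array, which no centring changes, the ratio fell on entering this block by 0.49 in B16F0 ECAC, 0.40 in B16F10 NCI and 0.33 in B16F10 ATCC, but by 0.11 in B16F0 ATCC. At its far end it rose by 0.53, 0.43, 0.36 and 0.15 in B16F0 ECAC, B16F10 NCI, B16F10 ATCC and B16F0 ATCC. B16F0 ATCC had the smallest steps of the 4, while B16F0 ECAC and both B16F10 arrays shared a middle stretch that was low relative to its own flanks. With normexp that order changed: the steps were -0.036 and 0.036 in B16F0 ECAC and -0.10 and 0.15 in B16F0 ATCC. The levels differed: the middle stretch was below 0 in B16F0 ECAC and near 0 in B16F10.

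**Figure D3:**
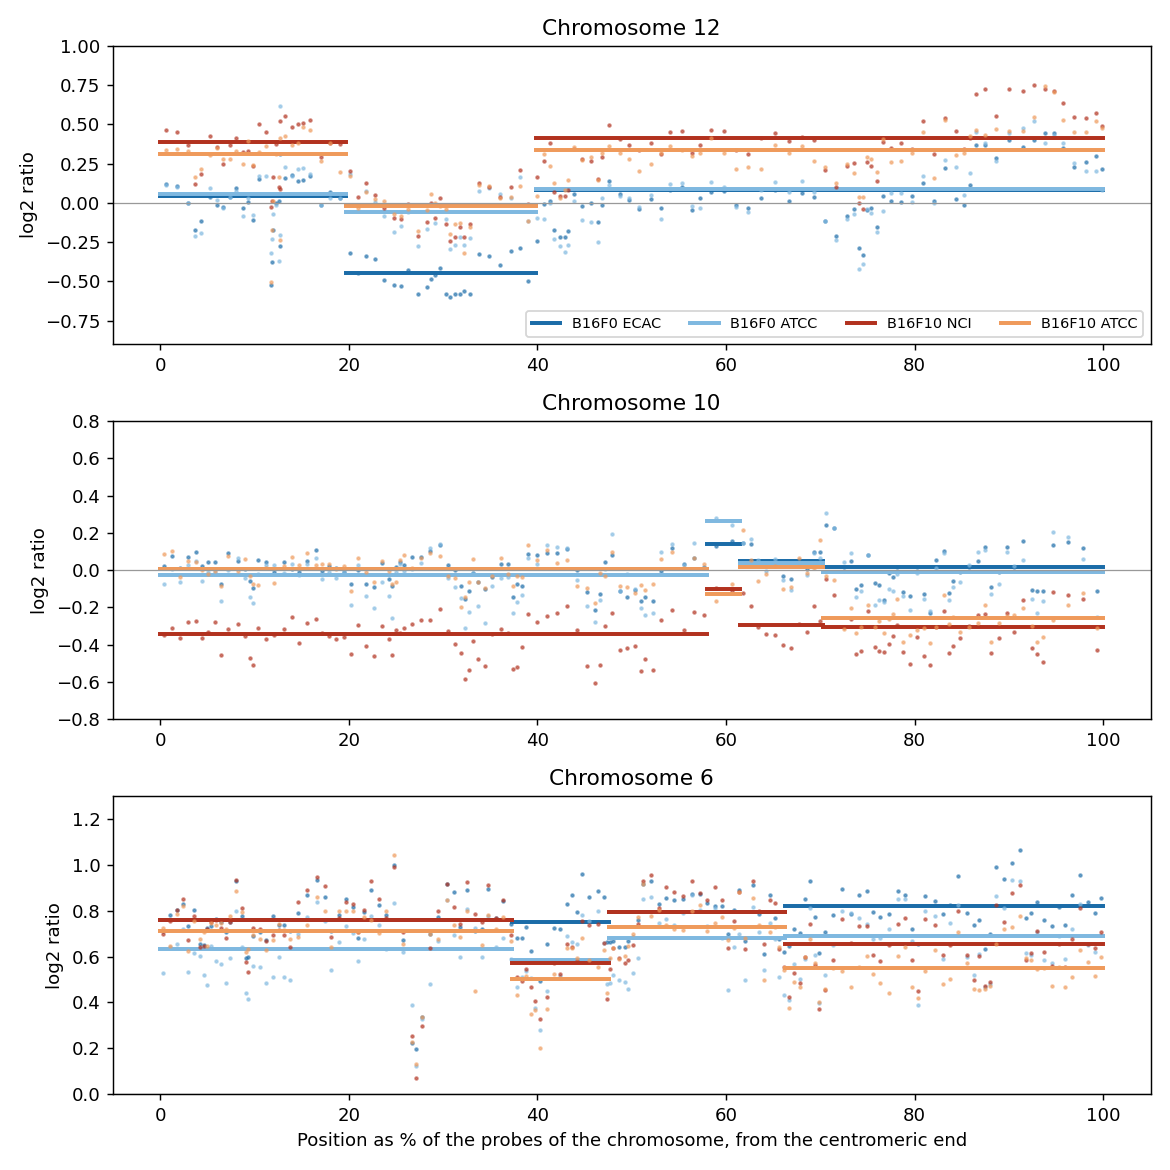
Points are 1 Mb bin means and horizontal lines are block means of the log2 ratio (y axis) on chromosomes 12, 10 and 6, in 1 colour per array; the x axis is the position as a share of the chromosome's probes. On chromosome 12 the B16F10 lines lie above the B16F0 lines in the outer blocks (0.39 and 0.31 against 0.043 and 0.056 in the proximal block), on chromosome 10 they meet in the distal block, and on chromosome 6 they step down in the second and the last block.

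Chromosome 10 was low along nearly its whole length in B16F10 NCI and in its distal part in B16F10 ATCC. In the first block, from 3002742 to 78936151 (6777 probes), the ratios were 0.0079 and -0.027 in B16F0 ECAC and ATCC, -0.34 in B16F10 NCI and 0.0051 in B16F10 ATCC. B16F10 NCI alone was low there. In the last block, from 92080608 to 129936878 (3473 probes, 37.9 Mb), they were 0.014 and -0.012 in B16F0, -0.31 in B16F10 NCI and -0.26 in B16F10 ATCC. Both B16F10 arrays were low in that block, with a gap of 0.25 to the B16F0 arrays and a 1.22-fold lower ratio on average. The step at its start was seen in B16F10 ATCC, where the ratio fell by 0.27; at the same place the change was -0.037, -0.051 and -0.011 in B16F0 ECAC, B16F0 ATCC and B16F10 NCI. The block just before, from 80985534 to 92062577, was low in B16F10 NCI (-0.30) and not in B16F10 ATCC (0.015). Within the second scan batch the distal difference was -0.26, and with normexp the difference over both pairs was -0.037 and the sublines overlapped.

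A second, short block of chromosome 10, from 78941195 to 80980110 (413 probes, 2.04 Mb), also separated the sublines, at 0.14 and 0.26 in B16F0 ECAC and ATCC and -0.10 and -0.13 in B16F10 NCI and ATCC. The steps into it differed, however. The ratio rose by 0.13 in B16F0 ECAC, 0.29 in B16F0 ATCC and 0.24 in B16F10 NCI relative to the first block, and fell by 0.13 in B16F10 ATCC. B16F10 NCI followed the local pattern of the B16F0 arrays at a lower level there, and B16F10 ATCC was the array that dipped. P815, the lowest of the 12 other lines in this block, stood at -0.21, below both B16F10 arrays. The median over the 12 was 0.20 and the highest, PAN02, stood at 0.42, so the B16F0 levels were within the range of the other lines. The block includes a short dip of B16F10 ATCC, from 80948910 to 80969330, described below. With normexp the difference in this block went from -0.32 to -0.10 and the sublines overlapped.

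Chromosome 6 carries genes such as Braf, a kinase of the MAPK pathway, and Mitf, the transcription factor that directs the melanocyte programme. It was gained on all 4 arrays, with medians of 0.77 and 0.62 in B16F0 ECAC and ATCC and 0.70 and 0.64 in B16F10 NCI and ATCC, and every one of the 12 other lines was lower, at 0.27 or less. The median did not separate the sublines, but the shape of the gain did. From 57627753 to 75250387 (1444 probes) the ratio was 0.75 and 0.59 in B16F0 and 0.57 and 0.50 in B16F10. From 103712916 to 149520662 (4712 probes, 45.8 Mb) it was 0.82 and 0.69 in B16F0 and 0.66 and 0.55 in B16F10. In level, both stretches had a gap of 0.034 or less, and in every block of the chromosome each ATCC array was below the other array of its subline.

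Within the arrays the contrast was clearer. On entering the stretch that starts at 57627753, the ratio changed by -0.011 in B16F0 ECAC and -0.048 in B16F0 ATCC and by -0.19 in B16F10 NCI and -0.21 in B16F10 ATCC. At its end it rose by 0.22 in both B16F10 arrays and by 0.043 and 0.096 in the B16F0 arrays. On entering the distal stretch it changed by 0.028 and 0.0079 in B16F0 and by -0.14 and -0.18 in B16F10. Thus both B16F10 arrays held 2 stretches in which the gain was smaller than on the rest of chromosome 6, and the B16F0 arrays held a nearly even gain.

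Over all 31 boundaries between neighbouring blocks, the step was apart by at least 0.1 and higher in B16F10 at 1 (3.23%) and lower at 3 (9.68%). All but one of these 4 were the steps of chromosome 6. The other was on chromosome 8 at 86023130, where the ratio rose by 0.45 and 0.52 in B16F0 ECAC and ATCC and by 0.15 and 0.051 in B16F10 NCI and ATCC. That step came from different sides in the 2 B16F0 arrays. The block before it, from 32549747 to 85990864, was low in B16F0 ECAC (-0.27) and near 0 in the others (0.0045 to 0.056). The block after it, from 86023130 to 110586708, was high in B16F0 ATCC (0.52), against 0.18 in B16F0 ECAC, 0.21 in B16F10 NCI and 0.067 in B16F10 ATCC.

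**Figure D4:**
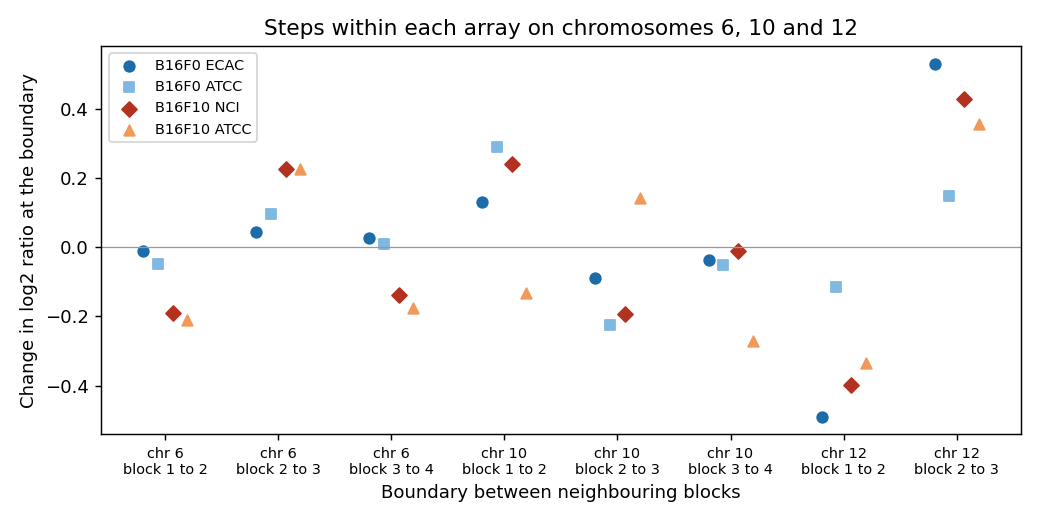
Each point is the change in log2 ratio (y axis) from one block to the next within 1 array, for the 8 boundaries on chromosomes 6, 10 and 12 (x axis). At the boundaries of chromosome 6 both B16F10 arrays lie apart from both B16F0 arrays, with gaps of 0.14, 0.13 and 0.15; on chromosome 10 B16F10 ATCC departs from the other 3, and on chromosome 12 B16F0 ATCC has the smallest steps.

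Finer segments, drawn from the 4 profiles together without regard to subline, placed the separation on the same chromosomes. Of 637 autosomal segments, 19 (2.98%) were higher in B16F10 with a gap of at least 0.2 and 6 (0.942%) were lower. Of the 19, 17 lay on chromosome 12 and covered 76.9 Mb, and all 6 lower segments lay on chromosome 10 and covered 36.8 Mb. Limma called 0 of 637 segments, with 30 at an unadjusted p under 0.05 (4.71%) and a lowest adjusted p of 0.63.

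The widest gap of a segment was 0.31, on chromosome 12 from 88797115 to 98185788 (708 probes), at -0.14 and -0.16 in B16F0 ECAC and ATCC and 0.17 in both B16F10 arrays. Next came 113655258 to 114779484 on the same chromosome (128 probes), at 0.51 and 0.52 in B16F0 and 0.84 and 0.83 in B16F10. These 2 segments differ in level on every array, and the gap between the sublines was 0.31 in both. Of the 8 segments that followed in order of gap, 7 were also on chromosome 12, with gaps of 0.26 to 0.29. The exception was a segment of 10 probes on chromosome 1 from 141476467 to 141591701, at 0.87 and 0.92 in B16F0 ECAC and ATCC and 1.19 and 1.31 in B16F10 NCI and ATCC. The 12 other lines stood at 0.70 to 1.85 there, so the region was above the reference in every line. The other higher segment off chromosome 12 was on chromosome 4 from 88706575 to 88776278 (11 probes). On each array the line signal of at least 10 of the 11 probes was not well above background, so the levels are bounds on a loss present on all 4 arrays and no fold between the sublines is given.

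On chromosome 10 the widest gap among segments was 0.28, from 92134493 to 93728277 (171 probes), at 0.29 and 0.31 in B16F0 and -0.050 and 0.0015 in B16F10. The 12 other lines stood at 0.0020 to 0.54 there, with a median of 0.25, so a level above the reference was not particular to B16F0. The longest of the 6 covered 15.9 Mb from 93737016 to 109624997 (1154 probes), at -0.049 and -0.079 in B16F0 and -0.38 and -0.29 in B16F10, and its gap of 0.21 was the one just inside the limit of 0.2. From 109840311 to 122202090 (1088 probes) the ratios were 0.024, 0.0058, -0.31 and -0.27. From 126001315 to 128675102 (496 probes) they were 0.15, 0.18, -0.11 and -0.19, where the 12 other lines stood at 0.088 to 0.39. From 122387363 to 123138671 (104 probes) they were 0.088, -0.0020, -0.26 and -0.28 on the B16 arrays. The remaining one, from 78941195 to 82488281, overlaps the short block described above. Just inside the limit among higher segments was chromosome 12 from 25080020 to 29383705 (gap 0.21). Just outside it were a segment of 5 probes on chromosome 8 from 32635591 to 32656306 (gap 0.19) among higher ones and a segment of 5 probes on chromosome 4 from 138350751 to 138366550 (gap 0.17) among lower ones. In the latter B16F10 ATCC stood at -2.09, against -0.44, -0.44 and -0.61 on the other B16 arrays. P815, the lowest of the 12 other lines there, stood at -1.74.

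Many short segments of that kind were seen in B16F10 ATCC. Of 90 segments shorter than 20 probes among the 323 drawn from differences between arrays, B16F10 ATCC was the lowest by at least 0.5 in 77. No other array was the lowest by that margin in more than 1. In 63 of the 90, B16F0 ECAC was the next lowest. Dips seen in B16F10 ATCC alone among the 4 B16 arrays are no subline difference by the rule used here. Among the 90, 1 was higher and 2 were lower in B16F10 with a gap of at least 0.2. The 2 lower ones, of 5 probes each, were dips of the same kind on chromosome 10. From 80948910 to 80969330 B16F10 ATCC stood at -1.42 and B16F10 NCI at -0.37. From 127134674 to 127148874 they stood at -1.89 and -0.27. P815, the lowest of the 12 other lines in both, stood at -1.56 and -1.50. The medians over the 12 were -0.11 and 0.11. The higher one, on chromosome 4 from 88706575 to 88769354, has 9 or 10 of its 10 probes not well above background in the line on each array, so its gap is between bounds. Among all 323, 8 (2.48%) were higher and 6 (1.86%) lower by that gap, these 3 included, which leaves 7 and 4. As these segments were drawn from the differences between the arrays, they were given no test.

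At single probes, limma called 0 of 220487 (0%), with 3379 at an unadjusted p under 0.05 (1.53%). Without B16F10 NCI it called 2071 probes, and without B16F10 ATCC 109, with the lone B16F10 array assumed to vary like the others.

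Most of the remaining differences belonged to 1 array or crossed the sublines. A block was at least 0.2 away from all 3 other arrays, on one side of them, in 9 of 50 blocks for B16F0 ECAC (15.99% of probes), 3 for B16F0 ATCC (8.92%), 3 for B16F10 NCI (3.58%) and 4 for B16F10 ATCC (6.19%). Both B16F10 counts include the strain region of chromosome 4, where the ratios are bounds; without it they were 2 (3.54%) and 3 (6.14%). B16F0 ECAC was the low array on distal chromosome 1 from 119272158 to 197062816, at -0.22 against 0.094 to 0.13 in the others. It was also low on chromosome 9 from 3088282 to 44962764 (-0.24, against -0.014 to 0.075) and on chromosome 15 from 3091692 to 72926514 (-0.16, against 0.12 to 0.14). Thus the narrow separation of the chromosome 1 medians came with a block in which B16F0 ATCC lay among the B16F10 arrays.

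B16F0 ATCC alone gained chromosome 2 from 111727270 to 181918277, at 0.35 against 0.046 in B16F0 ECAC and 0.099 and 0.0030 in B16F10 NCI and ATCC. B16F10 ATCC alone was low on chromosome 13 from 29370805 to 120606215, at -0.29 against 0.015 to 0.026 in the others. The first 26.4 Mb of that chromosome, from 3004789 to 29365041, were low on every array, at -0.30 to -0.38. On chromosome 3 from 114374794 to 159870361, B16F0 ECAC, B16F0 ATCC and B16F10 NCI were at -0.35, -0.42 and -0.36, and B16F10 ATCC was at -0.089. Chromosome 4 from 15955907 to 70380073 paired B16F0 ATCC (-0.40) with B16F10 NCI (-0.39), while B16F0 ECAC stood at 0.21 and B16F10 ATCC at -0.023.

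Pairs of arrays of one subline were not uniformly closer than pairs across sublines. The 2 B16F0 arrays were at least 0.2 apart over 35.4% of autosomal probes in blocks, more than any pair across sublines (18.0% to 32.4%). The 2 B16F10 arrays were that far apart over 13.7%, less than any other pair by this measure. By the share of 1 Mb bins at least 0.2 apart, the B16F10 pair (19.4%) was not the closest. B16F0 ATCC with B16F10 NCI had the lower share (18.0%). Over 2408 bins Pearson's r was 0.76 for the B16F0 pair and 0.86 for the B16F10 pair, and it was highest, at 0.89, for B16F0 ATCC with B16F10 NCI. These correlations are across bins that share a reference, probes and a chromosome 6 gain, and neighbouring bins are not independent. In 19 of 50 blocks, with 43.9% of probes, all 4 arrays lay within 0.2 of each other.

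**Figure D5:**
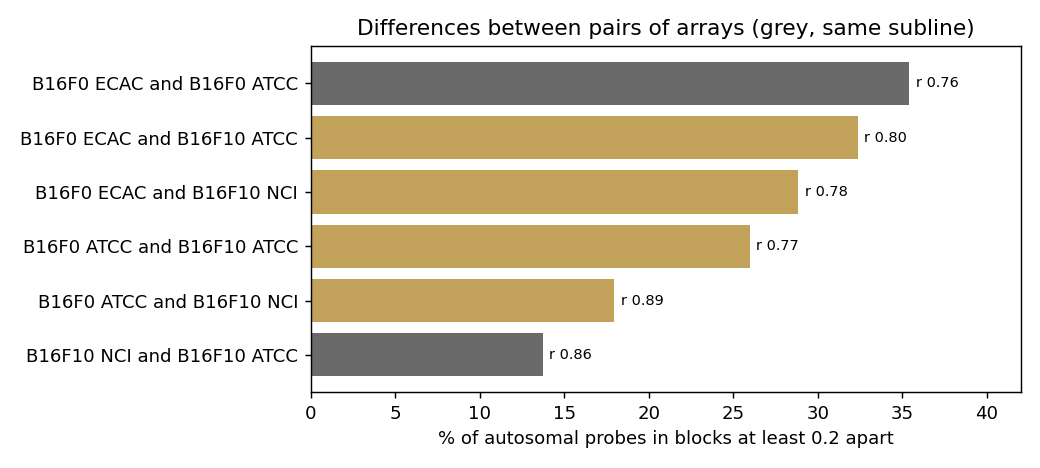
Bars give, for each of the 6 pairs of arrays, the share of autosomal probes in blocks that differed by at least 0.2 in log2 ratio, with Pearson's r over 1 Mb bins beside each bar. The B16F10 pair has the smallest share (13.7%) and the B16F0 pair the largest (35.4%).

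Several strong features were common to both sublines. Chromosome 4 from 139282580 to 140803875 (201 probes, 1.52 Mb) was gained on all 4 arrays, at 1.29 in B16F0 ECAC, 0.76 in B16F0 ATCC, 0.70 in B16F10 NCI and 1.04 in B16F10 ATCC. The other 12 lines were at 0.27 or less there. The values again paired B16F0 ATCC with B16F10 NCI. The X chromosome had medians of -1.14 and -1.28 in B16F0 and -1.17 and -1.17 in B16F10, which overlap. It changed level along its length in the same way on each array. From 89346745 to 98854476 it stood at -0.82 to -0.89, and from 98862705 to 102413677 (358 probes) it rose to 0.034 to 0.11. From 105042802 to 128934217 (1226 probes) it was at -1.89 to -2.02, lower than in any of the 12 other lines (-1.48 or higher). The Y chromosome was at -0.92 to -0.99 over 593 probes. The sex of the reference DNA is not given in the sources used here.

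Against the rest of the series, the block means of B16F10 on chromosome 12 were high but within range. The 12 other lines spanned -0.22 to 0.44 in its distal block, and 2 of them were at or above the lower B16F10 array; the highest was PAN02. In 4 of the finer segments near the distal end, however, both B16F10 arrays were above all 12 other lines. One was 117163323 to 120458172, at 0.53 and 0.46 against a maximum of 0.36 in the others. The rest lie between 113655258 and 115956024, where lines differed widely and both B16F0 arrays were raised too. From 115665009 to 115956024 the other lines ran from -1.30 (P815) to 0.95 (PAN02). There both B16F0 arrays stood at 0.71 and the B16F10 arrays at 1.08 and 0.99. The distal block of chromosome 10 was lower in both B16F10 arrays than in each of the 12 other lines, of which the lowest, P815, stood at -0.24 against -0.26 in B16F10 ATCC. That margin is smaller than the difference between the 2 B16F10 arrays.

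Genes were placed by chromosome, since no gene coordinates on mm8 were used. All 114 genes of 7 lists matched by symbol, and 6 of them (5.26%) lie on chromosome 12, against 679 of 20665 autosomal protein-coding genes (3.29%). These 6 include 4 of the 22 listed oncogenes. They are Akt1, a survival kinase downstream of PI3 kinase, Fos, a subunit of the AP-1 transcription factor, Max, the partner of Myc, and Mycn, a relative of Myc. The others are Twist1, a transcription factor of the epithelial-mesenchymal transition, from the list for invasion and metastasis, and Dicer1, a nuclease of miRNA processing, from the tumour suppressors. The lists for melanocyte lineage, antigen presentation, interferon signalling and checkpoint ligands held 0 genes on chromosome 12. The middle block of that chromosome had a gap of 0.038 between the sublines, so its genes need not share 1 value. Which block holds each gene was not determined.

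Chromosome 10 holds 8 of the 114 (7.02%, against 4.84% of protein-coding genes). Ifngr1, a chain of the interferon gamma receptor, and Stat2, a transducer of interferon signals, are from the list of 14 interferon signalling genes. Cdk4, a kinase of the cell cycle, and Mdm2, a ligase that degrades p53, are from the oncogenes. The others were Pmel, a melanosome protein, Stk11, a tumour suppressor kinase, Timp3, an inhibitor of metalloproteinases, and Vsir, an immune checkpoint ligand. Antigen presentation had 0 of 16 genes there. Chromosome 10 differed between its blocks, so that its genes do not share 1 value. Taking for each gene the difference in median of its chromosome, the median over the genes of a list ran from -0.029 (invasion and metastasis, and tumour suppressors) to 0.045 (oncogenes), against -0.014 over all protein-coding genes. DNA copy number was measured here, and no RNA or protein level of these genes was.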

How the data were processed

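DNA of each line (Cy5) and a common mouse genomic DNA (Cy3) were hybridised to 2-colour arrays, per the labels. Agilent Feature Extraction (per the submitters' processing notes; version 10.7.3.1, per the file headers) gave the deposited intensity values. They were background-subtracted, detrended and linearly dye-normalized, per the file headers, which also give the build mm8. The deposited log10 ratio and the ratio of the processed signals were equal for at least 99.9% of spots on each of the 4 arrays (within 0.001 in log2). The deposited log2 table differed from that ratio by at most 5.06e-05, so its scale and direction are settled and it holds no further centring; its column medians were 0.0003 to 0.024 on the 4 arrays. Flags for outlier and dim spots are the deposited values, 0 or 1.

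The log2 ratio of processed red over green was averaged over repeat spots, without flagged spots, and centred on each array's autosomal median, with no loess or quantile step. Of 235402 probes, 2190 had no placed position. Autosome medians, means of 1 Mb bins, segments and probes were compared, 2 arrays against 2, with limma 3.58.1 (lmFit, eBayes, R 4.3.3) and Benjamini-Hochberg adjustment at 0.05. Segments came from an exact change point search on the 4 arrays with a squared-error cost, a penalty of 8 log(n), n being the autosomal probe count, and at least 5 probes. Difference segments used 3 contrasts between the arrays in their place, and blocks the same contrasts with a penalty of 32 and at least 100 probes; both were chosen after seeing the data. Gene symbols were matched to chromosomes in RefSeq (GRCm38.p6), and no coordinate was taken from it. The scripts were tested on simulated data. The named items are the autosomes whose medians do not overlap, the X chromosome, the 3 autosomes with the largest difference within each subline, the 10 segments with the widest gaps of at least 0.2 in each direction with those next to that limit, and the 3 bins with the widest gaps in each direction; blocks, steps and other regions were chosen after their values were seen. The members, lists and tests were chosen with earlier results of these data known. Alternatives were mode centring, no centring (the deposited log2 table), normexp, equal ranges, flagged spots kept, dim probes left out, other bins, gaps and segments, each array left out, and the 2 ATCC arrays alone. Normexp (offset 50) used median spot signals, as the files used here hold no mean signal. No spread other than that between the 2 arrays of a subline was available, and arrays of a subline have no shared numbers with the other.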

Additional observations from a re-analysis of the deposited data

How the results depend on the processing

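With 2 arrays against 2, limma called 0 bins, autosomes, segments and probes, and also under the alternatives run other than arrays left out. With 1 array left out the counts of calls stayed at 0 for bins and segments and ran from 0 to 1 for autosomes and 0 to 2071 for probes (109 without B16F10 ATCC). Counts of bins apart by 0.2 were 65 higher and 22 lower. With 1 array left out, which asks for separation from fewer arrays, they ran from 71 to 327 higher and from 126 to 222 lower. Normexp gave 6 higher, 3 of them on chromosome 12, and 0 lower. Bins of 0.5 Mb gave 132 and 41, and bins of 2 Mb gave 36 and 11. A gap of 0.1 gave 91 and 42, of which 81 were on chromosome 12 and 40 on chromosome 10, and a gap of 0.3 gave 13 and 4, each of them on chromosome 12 or 10. Under mode centring, no centring and equal ranges the counts were 55 to 74 and 20 to 25, each of them on those 2 chromosomes.

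Normexp shrank the arrays unequally: the first block of chromosome 6 went from 0.76 to 0.091 in B16F0 ECAC and from 0.63 to 0.68 in B16F0 ATCC. Under it the chromosome 12 difference fell from 0.29 to 0.12 and stayed without overlap in all 3 of its blocks (gaps of 0.045 to 0.11). On chromosome 10 the distal difference went from -0.28 to -0.037 and that of the short block from -0.32 to -0.10, and both overlapped. The difference in the second block of chromosome 6 reversed, from -0.13 to 0.0100, while 2 of its 3 steps still lay apart (gaps of 0.035 and 0.095). The cause was not tested. With the 2 ATCC arrays alone, 1 against 1, the chromosome 10 median difference went from -0.19 to -0.037, that of chromosome 14 from -0.16 to -0.31 and that of chromosome 4 from -0.026 to 0.25; chromosome 12 was at 0.24. No paired analysis was possible because the labels give the arrays no replicate numbers.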
